A study of Mus musculus with 8 samples.

Results

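Peroxisomal oxidation enzymes and peroxins were followed in the liver of aged obese female mice: 44 genes, chosen by name for their place in the peroxisome, of the 56884 genes counted in each library. They comprised 16 enzymes that act on fatty acids, 12 peroxins, which are the proteins that build peroxisomes, and 16 other proteins of the organelle. All mice were C57BL/6J females that received a high-fat diet from 2 months of age with 20% of its energy as protein, 35% as carbohydrate and 45% as lipid. After 4 months they were split into a DIO (diet-induced obese) group that kept this diet and a DIO + DHA group in which a fish-oil concentrate rich in docosahexaenoic acid (DHA) took the place of 15% of the dietary lipid by weight, and both groups were killed at 18 months after an overnight fast. The concentrate held 683.4 mg of DHA, 46.7 mg of eicosapentaenoic acid and 838.9 mg of n-3 polyunsaturated fatty acids in all per gram, and both diets carried the same tocopherols from the start of the supplement. There was no lean or young group in these data, the mice were a subset of a larger project, and the groups differed in the supplement together with the dietary fat it replaced, which cannot be told apart. Liver RNA was sequenced from 3 DIO mice (replicates 1, 4 and 5) and 5 DIO + DHA mice (replicates 1, 2, 4, 5 and 6), with 1 library per mouse, and every library carried the same batch label.

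Peroxisomes shorten the fatty acids that mitochondria handle poorly, such as very long, branched and some polyunsaturated chains, and the last chain-shortening step in the making of DHA itself is peroxisomal. Acyl chains enter through ABC transporters of the membrane, pass through rounds of oxidation, hydration, dehydrogenation and thiolysis, and leave as carnitine esters or free acids, while the hydrogen peroxide formed is removed by catalase. Peroxins import the finished enzymes through receptors that read short targeting signals, insert the membrane proteins and divide the organelle. In rodent liver, many of the beta-oxidation genes are targets of the nuclear receptor PPAR alpha, which binds fatty acids.

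Library totals ran from 1723800 counts in DIO replicate 1, the shallowest library, to 5690347, around a median of 4495644. Expression is given as counts per 1000000 (CPM) with TMM scaling of the library totals, and a gene was called at an adjusted p below 0.05 in the edgeR quasi-likelihood test over the 12412 genes with enough counts, which included all 44 peroxisomal genes. The defining hepatocyte markers were abundant in every library, at a summed level of 88826 to 93974 CPM over 10 genes in DIO and 94774 to 109913 CPM in DIO + DHA, so that the ranges did not overlap, with 3 of the 10 called higher and 2 lower. Markers of other cell types also differed between the groups. The 10 skeletal muscle markers summed to 31.9 to 35.9 CPM in DIO and 1239 to 1297 CPM in DIO + DHA, all 10 being called higher. The 8 brown adipocyte markers summed to 211 to 233 CPM and 297 to 322 CPM, with 6 of 7 tested called higher and Ucp1 and Plin1 at 0 in DIO, and the 8 squamous epithelium markers reached at most 0.360 CPM in DIO and 47.5 to 51.2 CPM in DIO + DHA, with all 3 tested called higher and 6, Krt13, Krt5, Krt14, Lgals7, Krt6a and Dsg3, at 0 in DIO. The 10 Kupffer cell and macrophage markers summed to 700.3 to 788 CPM and 393 to 427 CPM, with 8 called lower and 1 higher. The part of these differences in the peroxisomal results was not tested. Nor was the source of the muscle, brown adipocyte and squamous epithelium transcripts in DIO + DHA. In tissue RNA, the number of cells of a type and the RNA per cell cannot be told apart.

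Among the 44 genes, 7 were called higher in DIO + DHA and 4 lower, and 33 were not called. The 7 higher genes were Ehhadh, Acaa1b, Hsd17b4, Crot, Abcd3, Pex19 and Ech1, and the 4 lower genes were Hao1, Pipox, Pecr and Pex7. Of all tested genes, 7.89% were called higher and 7.28% lower. In 12 of the 44 genes the lowest DIO + DHA library exceeded the highest DIO library, against 9.55% of all tested genes, and in 6 the highest DIO + DHA library was under the lowest DIO library, against 8.88%. The median log2 fold change of the 44 genes was 0.06, between -0.54 for Far1 and 1.25 for Ehhadh, and 27 of the 44 values were positive. Over all tested genes the median was 0.0013. With scaling by library size alone the split was 6 higher and 6 lower, with Eci2 and Cat added to the lower genes and Pex19 lost from the higher ones.

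The fatty acid enzymes and the peroxins had similar medians, and the difference in their numbers of calls was not tested. Of the 16 fatty acid enzymes, 5 (31.25%) were called higher and 1 lower, with 10 positive values and a median log2 fold change of 0.08. Of the 12 peroxins, 1 (8.33%) was called higher, a share near the 7.89% of all tested genes, and 1 lower, with 8 positive values and a median of 0.10. The summed level of the fatty acid enzymes was 5273 ± 78.7 CPM (SD over 3 mice) in DIO and 5911 ± 73.4 CPM (SD over 5 mice) in DIO + DHA, a ratio of 1.12. The peroxins summed to 713 ± 24.02 CPM and 744 ± 24.9 CPM, a ratio of 1.04. Between 4 and 5 fatty acid enzymes were called higher under every other setting tried, whereas the number of peroxins called higher moved between 0 and 2. By the DESeq2 Wald test no peroxin was called in either direction, with 2 higher and 1 lower at an unadjusted p below 0.05, and by limma-voom 1 was called in each direction.

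**Figure D1:**
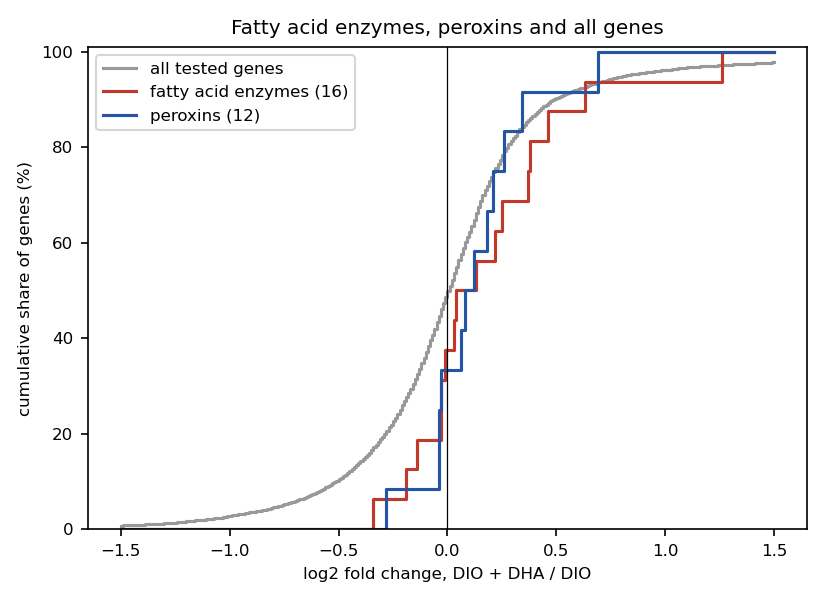
Cumulative share of genes (y axis, percent) at or below each log2 fold change of DIO + DHA over DIO (x axis, shown between -1.5 and 1.5) for the 16 fatty acid enzymes, the 12 peroxins and all tested genes. The medians of the enzymes and the peroxins lie at 0.08 and 0.10. The enzyme curve reaches farther to the right than the peroxin curve because of Ehhadh at 1.25. The curve of all tested genes extends beyond both and is at 97.8% at 1.5.

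**Figure D2:**
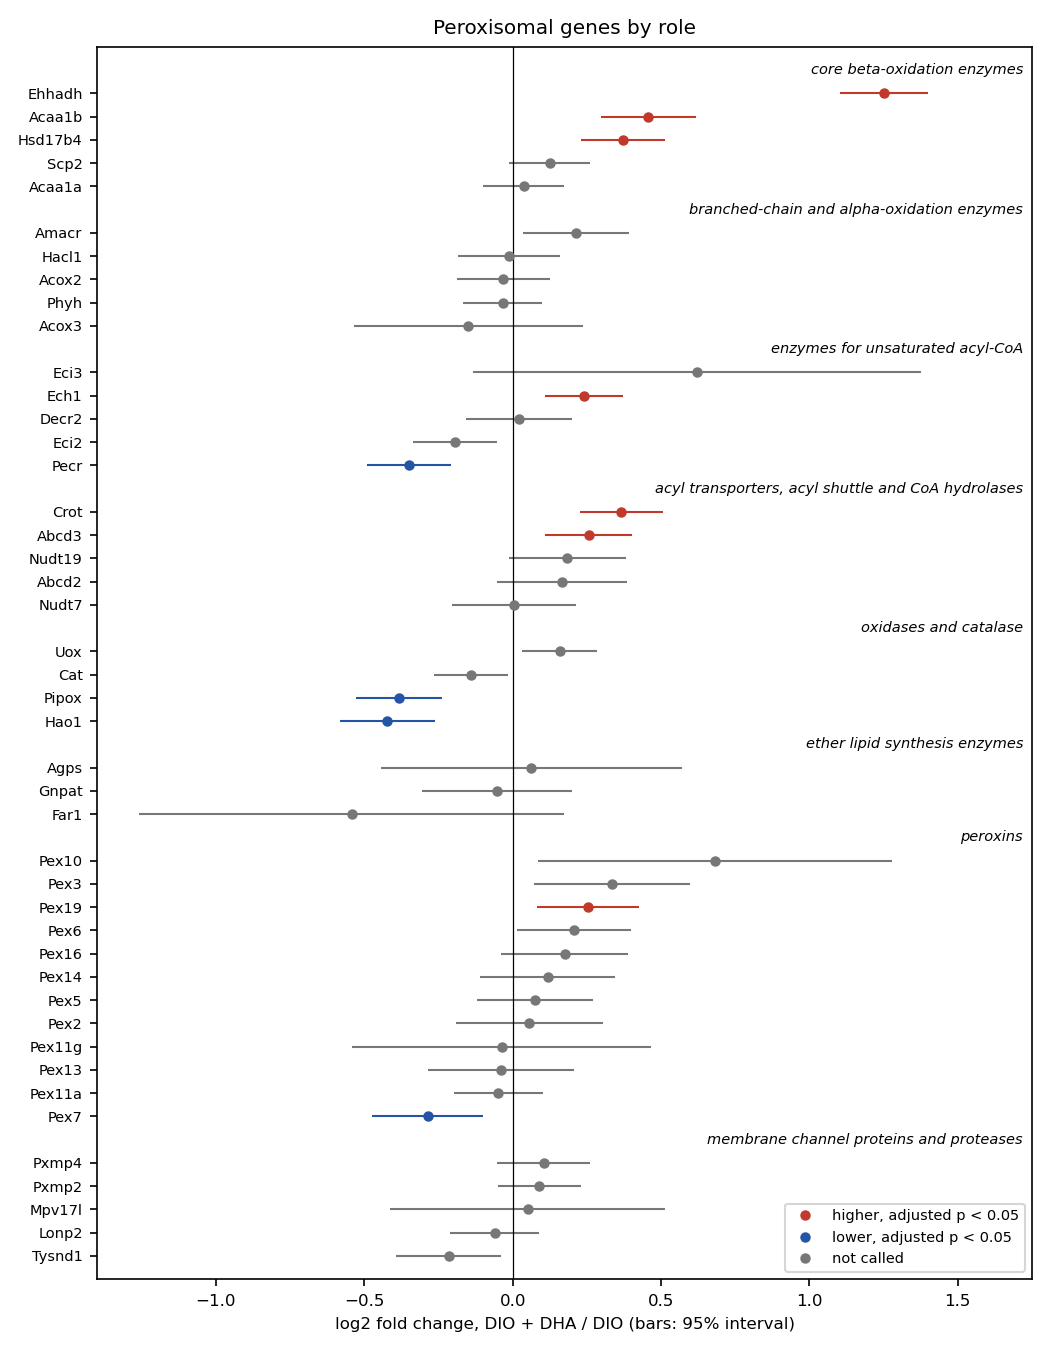
Log2 fold change of DIO + DHA over DIO for each of the 44 peroxisomal genes, in 8 role groups, with bars for the 95% interval. Red points mark the 7 genes called higher, blue points the 4 called lower and grey points the 33 not called. The higher calls are 3 core beta-oxidation enzymes, 2 genes of the transporters and shuttle, Ech1 and Pex19. The lower calls are 2 oxidases, Pecr and Pex7.

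The last 3 codons of a coding sequence can name the receptor that imports an enzyme, and are shown because they tie the oxidation enzymes to the peroxins. Proteins that end in serine, alanine or cysteine, then lysine, arginine or histidine, then leucine or methionine carry the type 1 targeting signal, which the receptor Pex5 reads. The lines below give, 5′ to 3′, the last 3 codons in capitals with the stop codon in lower case, from the GENCODE transcripts of 7 genes the results turn on.
Ehhadh: AGCAAACTGtga
Ech1: TCCAAGCTCtga
Crot: GCTCATCTTtag
Pecr: GCCAAGCTCtaa
Pipox: GCCCACCTTtga
Acaa1a: CCTGGGAACtga
Acaa1b: CCTGGGAACtga
Ehhadh, Ech1, Crot, Pecr and Pipox end in the signal. The thiolase genes Acaa1a and Acaa1b share the same last codons and do not end in it. Peroxisomal thiolases are known to be imported through a type 2 signal near their start, which the receptor Pex7 reads. Over the 44 genes, 14 ended in the type 1 signal (31.8%), against 0.513% of 21656 protein-coding genes. The genes were chosen for their place in the peroxisome, so this higher share follows from the choice and is not a finding. The 14 genes included 8 of the 16 fatty acid enzymes and none of the 12 peroxins. The 14 genes with the signal had 4 higher and 2 lower calls and a median log2 fold change of 0.07. The 30 genes without it had 3 higher and 2 lower calls and a median of 0.06. Only endings that match the pattern above were counted, and near matches, such as those of Cat and Hao1, fell among the 30. This feature was chosen after the expression values were known.

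The 5 core beta-oxidation enzymes were the role group with the most calls, with 3 higher and all 5 values positive. Their median log2 fold change was 0.37 and their summed level was 1940.3 ± 67.4 CPM (SD over 3 mice) in DIO and 2393 ± 63.6 CPM (SD over 5 mice), a ratio of 1.23. Ehhadh, the bifunctional enzyme that hydrates and dehydrogenates the acyl chains of the classical pathway (ENSMUSG00000022853, chromosome 16, 21580037 to 21606557 in GRCm39 by the counted GENCODE vM33 exons), changed most. Its level was 153, 143 and 159 CPM in DIO replicates 1, 4 and 5, and 358, 359.8, 376, 359 and 354 CPM in DIO + DHA replicates 1, 2, 4, 5 and 6. The groups lay far apart, and no DIO + DHA library differed from another by as much as the gap between them. The log2 fold change was 1.25 (SE 0.0738, edgeR adjusted p = 8e-21), or 2.38-fold, and Ehhadh ranked 37 by p among all tested genes. This kept its call under every setting tried, with log2 fold changes of 1.21 to 1.30.

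Hsd17b4, the second bifunctional enzyme, which serves branched and very long chains as well as the precursor of DHA, stood at 309, 288 and 269.7 CPM in the DIO libraries and at 368, 397, 379.9, 369 and 351 CPM in the DIO + DHA libraries. The ranges did not overlap, although the highest DIO and the lowest DIO + DHA library were close. Its log2 fold change was 0.37 (SE 0.0704, edgeR adjusted p = 4.9e-05). Acaa1b, a thiolase that releases acetyl-CoA at the end of each round, measured 209, 178 and 202 CPM in DIO and 297, 259.5, 295, 228 and 262 CPM in DIO + DHA. All 5 supplemented mice were above all 3 controls, with a log2 fold change of 0.46 (SE 0.0799, edgeR adjusted p = 1.4e-05). Its close paralog Acaa1a was at 421, 459 and 516 CPM in DIO and 488, 481, 475, 467 and 486 CPM in DIO + DHA. The 5 DIO + DHA values of Acaa1a fell inside the DIO range, and the log2 fold change was 0.04 (95% interval -0.10 to 0.17, edgeR adjusted p = 0.80). The transcripts of the paralogs share 80-base stretches, the length of the reads, over 27.3% of the starts in Acaa1b and 25.5% in Acaa1a, so part of the reads of either could not be assigned to a single gene. Scp2 encodes a thiolase for branched chains and a sterol carrier protein. It had means of 838 ± 104 CPM (SD over 3 mice) and 911 ± 47.1 CPM (SD over 5 mice). It was not called (log2 fold change 0.12, edgeR adjusted p = 0.26). Of its 80-base stretches, 35.5% also occur in transcripts of Gm67972 or the pseudogene Scp2-ps2, and 62.0% of the last 500, nearest the 3′ end, do so.

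**Figure D3:**
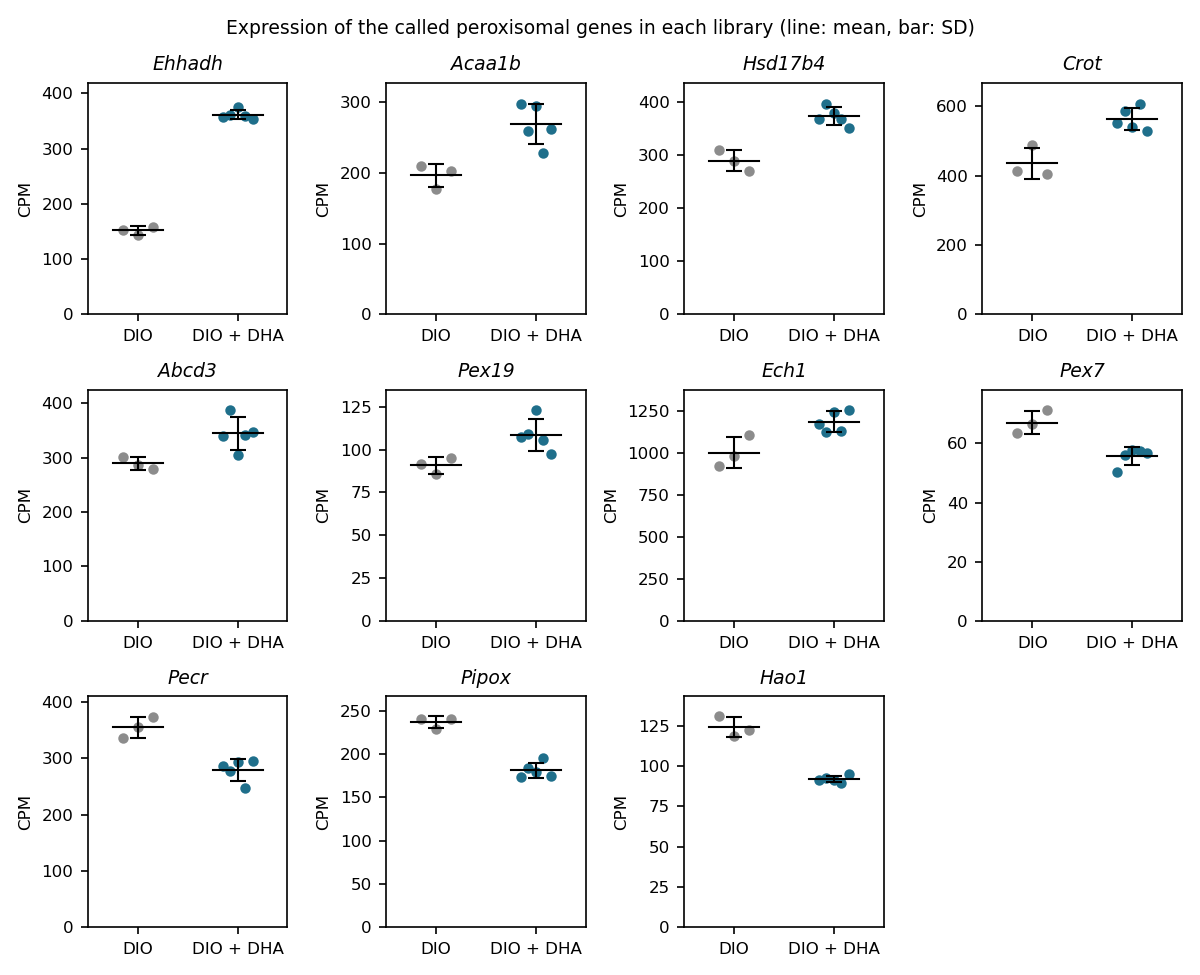
Expression in CPM (y axis, from 0) of the 11 called peroxisomal genes in each library, for DIO (n = 3, grey) and DIO + DHA (n = 5, blue), with a line at the mean and a bar for the SD. The groups do not overlap in any of the 11 genes; the separation is widest for Ehhadh, with at most 159 CPM in DIO and at least 354 CPM in DIO + DHA.

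The branched-chain and alpha-oxidation enzymes held no called gene. None of the 5 was called in either direction by edgeR, DESeq2 or limma-voom, with 1 of the 5, Amacr, at an unadjusted p below 0.05 by each. Phyh, the hydroxylase that opens alpha-oxidation of phytanic acid and the gene of highest CPM among them, had means of 755 ± 71.6 CPM (SD over 3 mice) and 736 ± 38.6 CPM (SD over 5 mice), and its log2 fold change was -0.03 with a 95% interval of -0.17 to 0.10. Hacl1, the lyase of the same route, had a log2 fold change of -0.01 (95% interval -0.18 to 0.16), and 33.3% of its exon bases overlap another annotated gene. Acox2, the oxidase of bile acid precursors and branched chains, had a log2 fold change of -0.03 (95% interval -0.19 to 0.12). Acox3, a related oxidase, was measured at 8.82 to 15.2 CPM in DIO and 7.02 to 12.5 CPM in DIO + DHA and its interval was wider, from -0.53 to 0.24. Amacr, a racemase that prepares branched chains for oxidation, averaged 82.9 ± 7.75 CPM (SD over 3 mice) and 97.6 ± 9.21 CPM (SD over 5 mice), with a log2 fold change of 0.21 (edgeR adjusted p = 0.10).

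Of the 5 enzymes that act on unsaturated acyl-CoA, Ech1 was called higher and Pecr lower. Ech1, a dienoyl-CoA isomerase, was at 921, 978 and 1102 CPM in DIO and 1168, 1124, 1239, 1131 and 1256 CPM in DIO + DHA. No library of the groups overlapped, with a narrow gap between DIO replicate 5 and DIO + DHA replicate 2. The log2 fold change of Ech1 was 0.24 (SE 0.0656, edgeR adjusted p = 0.0063), and without the shallow DIO replicate 1 it was 0.19 (edgeR adjusted p = 0.070) and no longer called. Pecr, a reductase of trans-2-enoyl-CoA that works in chain elongation, measured 336, 356 and 374 CPM in DIO and 286, 277, 293, 248 and 295 CPM in DIO + DHA. Every supplemented mouse was below every control, with a log2 fold change of -0.35 (SE 0.0705, edgeR adjusted p = 0.00015). The isomerase Eci2 averaged 324 ± 24.6 CPM (SD over 3 mice) and 283 ± 14.3 CPM (SD over 5 mice), with a log2 fold change of -0.19 that missed the threshold (edgeR adjusted p = 0.054). Decr2, the peroxisomal dienoyl-CoA reductase, had a log2 fold change of 0.02 (95% interval -0.16 to 0.20). Eci3, a paralog of Eci2, was counted at 1.12 to 2.88 CPM in DIO and 1.87 to 4.16 CPM in DIO + DHA, too low for its log2 fold change of 0.62 to be told from 0 (95% interval -0.13 to 1.38).

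Of the 5 genes for acyl transport, export and CoA hydrolysis, 2 were called higher, and all 5 values were positive. Crot, the carnitine octanoyltransferase that exports shortened chains for mitochondria, stood at 415, 487 and 406 CPM in DIO and 553, 587, 541, 607 and 529 CPM in DIO + DHA. The lowest supplemented mouse was above the highest control, and the log2 fold change was 0.37 (SE 0.0702, edgeR adjusted p = 6.2e-05). Abcd3, an importer of branched and dicarboxylic acyl chains, was at 302, 287 and 278 CPM in DIO and 340.1, 388, 305, 341 and 348 CPM in DIO + DHA. DIO + DHA replicate 4 lay only just above DIO replicate 1, and DIO + DHA replicate 2 was the highest. Its log2 fold change was 0.26 (SE 0.0726, edgeR adjusted p = 0.0091), and without DIO + DHA replicate 2 it was 0.21 (edgeR adjusted p = 0.054) and not called. Abcd2, a transporter of very long chains, had means of 37.8 ± 0.950 CPM (SD over 3 mice) and 42.0 ± 4.30 CPM (SD over 5 mice) and was not called (log2 fold change 0.17, edgeR adjusted p = 0.37). Of the hydrolases that degrade CoA inside the organelle, Nudt7 had a log2 fold change of 0.00 (95% interval -0.20 to 0.21), and Nudt19 was higher in every DIO + DHA library without being called (log2 fold change 0.18, edgeR adjusted p = 0.24), but 35.0% of its exon bases overlap an antisense gene that unstranded counting cannot separate.

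Of the 4 genes for oxidases and catalase, Hao1 and Pipox were called lower. Hao1, the glycolate oxidase of hepatocytes, was at 131, 119 and 123 CPM in DIO and at 91.4, 92.3, 91.5, 89.5 and 95.01 CPM in DIO + DHA. The 5 supplemented mice were tightly grouped below the 3 controls, and the log2 fold change was -0.42 (SE 0.0801, edgeR adjusted p = 5.1e-05). Pipox, which oxidises pipecolic acid and sarcosine, measured 241, 229 and 241 CPM in DIO and 174, 184, 179, 195 and 174 CPM in DIO + DHA. Again the groups did not overlap, with a log2 fold change of -0.38 (SE 0.0722, edgeR adjusted p = 4.6e-05). Hao1 and Pipox kept their calls under every setting tried, as did Ehhadh, Acaa1b, Hsd17b4, Crot and Pecr. Catalase (Cat) was at 1063, 1015 and 1086 CPM in DIO and 971, 988, 966, 901 and 959 CPM in DIO + DHA, and urate oxidase (Uox), the gene of highest CPM in this role, at 1197, 1196 and 1127 CPM and 1347, 1304, 1311, 1209.7 and 1369.6 CPM. For both genes the libraries of the groups did not overlap, in opposite directions, yet neither was called: the log2 fold change was -0.14 for Cat (edgeR adjusted p = 0.13) and 0.16 for Uox (edgeR adjusted p = 0.081).

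None of the 3 ether lipid synthesis enzymes, which make the first bonds of plasmalogens, was called by edgeR, DESeq2 or limma-voom, and none had an unadjusted p below 0.05. Gnpat, the acyltransferase of the route, averaged 27.4 ± 0.553 CPM (SD over 3 mice) and 26.2 ± 2.81 CPM (SD over 5 mice), and its log2 fold change was -0.05 (95% interval -0.31 to 0.20). Agps, the alkyl synthase, and Far1, the acyl-CoA reductase that supplies the alcohol, were counted at no more than 10.1 and 3.19 CPM, with 95% intervals of -0.44 to 0.57 and -1.26 to 0.17.

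Peroxins were considered by their place in biogenesis. Pex19, the chaperone that carries membrane proteins to the peroxisome, was the single peroxin called higher. It measured 91.5, 85.6 and 95.3 CPM in DIO and 107, 109, 123, 106 and 97.6 CPM in DIO + DHA, with a log2 fold change of 0.25 (SE 0.0858, edgeR adjusted p = 0.033). The lowest supplemented mouse was only just above the highest control, and the call was lost when DIO replicate 4 or DIO + DHA replicate 1, 2 or 4 was left out (edgeR adjusted p of 0.059 to 0.19) and by the DESeq2 Wald test (adjusted p = 0.082). Its membrane dock Pex3 was at 24.7, 26.4 and 18.9 CPM in DIO and 28.7, 26.8, 28.8, 29.4 and 31.2 CPM in DIO + DHA. The groups of Pex3 did not overlap, but the log2 fold change of 0.33 was not called (edgeR adjusted p = 0.077) except without DIO replicate 4. Pex16, another protein of membrane assembly, ranged from 41.5 to 64.5 CPM in DIO and from 53.8 to 68.7 CPM in DIO + DHA, with a log2 fold change of 0.17 (edgeR adjusted p = 0.32), which was 0.35 and called without DIO replicate 5 (edgeR adjusted p = 0.043) and 0.09 without DIO replicate 1.

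Pex7, the receptor for enzymes with the type 2 signal, was the peroxin called lower. It was at 63.4, 66.4 and 71.4 CPM in DIO and at 50.3, 56.2, 57.7, 57.3 and 56.7 CPM in DIO + DHA. The groups were apart, and DIO + DHA replicate 1 was well below the other supplemented mice. The log2 fold change was -0.29 (SE 0.0932, edgeR adjusted p = 0.026). It was no longer called without DIO replicate 4, DIO replicate 5 or DIO + DHA replicate 1 (edgeR adjusted p of 0.080 to 0.21) or by the DESeq2 Wald test (adjusted p = 0.080), nor when genes of at least 1 count in any library were tested (edgeR adjusted p = 0.051). The cargoes that Pex7 is known to import did not share a direction: Acaa1b was higher, and Acaa1a, Phyh and Agps were not called, at log2 fold changes of 0.04, -0.03 and 0.06. Pex5, the receptor for the type 1 signal, averaged 57.6 ± 4.01 CPM (SD over 3 mice) and 60.4 ± 5.76 CPM (SD over 5 mice), and its log2 fold change was 0.08 with a 95% interval of -0.12 to 0.27.

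The remaining peroxins were not called. For the docking proteins Pex13 and Pex14 the log2 fold changes were -0.04 (95% interval -0.29 to 0.21) and 0.12 (95% interval -0.11 to 0.34), and 28.3% of the exon bases of Pex14 overlap an antisense gene. Among the factors that recycle the receptors, Pex2, a ubiquitin ligase, was at 0.06 (95% interval -0.19 to 0.30) and Pex6, an ATPase, at 0.21 (edgeR adjusted p = 0.16). Pex10, the ligase partner of Pex2, was at 3.37, 3.06 and 3.19 CPM in DIO and 3.96, 7.36, 6.76, 3.74 and 4.79 CPM in DIO + DHA. All 5 supplemented mice were above the controls, but the counts were few and the log2 fold change of 0.68 was not called (95% interval 0.09 to 1.28, edgeR adjusted p = 0.12). Pex11a, which elongates peroxisomes before division, had the highest CPM of the peroxins and was at 245, 233 and 255 CPM in DIO and 251, 208, 235, 226 and 259.8 CPM in DIO + DHA. Its groups overlapped fully and the log2 fold change was -0.05 with a 95% interval of -0.20 to 0.10. Pex11g, its paralog, was counted at no more than 8.42 CPM (log2 fold change -0.04, 95% interval -0.54 to 0.47), and 41.1% of its exon bases overlap an antisense gene.

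**Figure D4:**
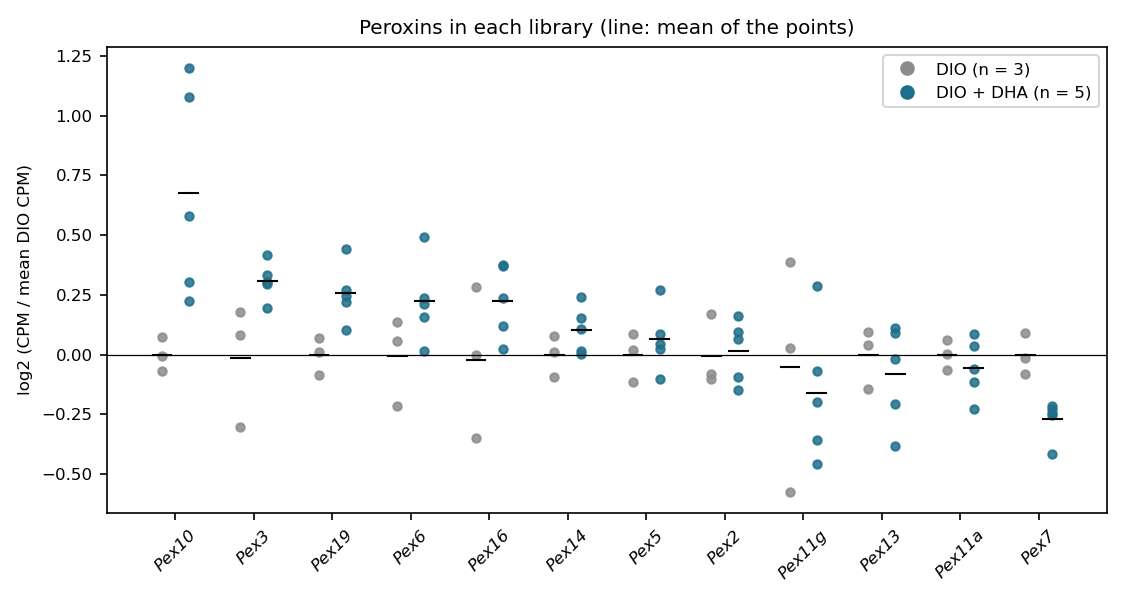
Log2 of the CPM of each of the 12 peroxins over its mean in DIO (y axis) in every library, DIO in grey (n = 3) and DIO + DHA in blue (n = 5), with a line at the mean of each group's points and the genes ordered by fold change. All 5 DIO + DHA libraries lie above the DIO libraries for Pex10, Pex3 and Pex19 and below them for Pex7, and the groups overlap for the other 8 peroxins.

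The 5 membrane channel proteins and proteases were not called by edgeR, DESeq2 or limma-voom, with 1, Tysnd1, at an unadjusted p below 0.05 by each. Pxmp2, a channel protein and the gene of highest CPM among these, averaged 268 ± 6.43 CPM (SD over 3 mice) and 286 ± 10.5 CPM (SD over 5 mice), with all DIO + DHA libraries above DIO but a log2 fold change of 0.09 (edgeR adjusted p = 0.47). Tysnd1, the protease that cuts imported beta-oxidation enzymes, averaged 81.9 ± 4.28 CPM (SD over 3 mice) and 70.2 ± 4.26 CPM (SD over 5 mice) and lay lower in all DIO + DHA libraries (log2 fold change -0.22, edgeR adjusted p = 0.096). The log2 fold changes of Pxmp4, Mpv17l and the protease Lonp2 were 0.11, 0.05 and -0.06, with edgeR adjusted p of 0.44 to 0.93.

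How far the missing calls speak depends on the intervals. The 95% interval lay within 0.5 log2 units on either side of 0 for 25 of the 33 genes not called, and for 7 of the 10 peroxins not called. The other 8 were Eci3, Far1, Agps, Acox3, Pex10, Pex11g and Mpv17l, which are the 7 genes of lowest mean CPM among the 44, and Pex3, whose interval was 0.07 to 0.60. Between mice, the median coefficient of variation of the 44 genes was 7.40% in DIO and 6.96% in DIO + DHA. For all tested genes of at least 10 CPM it was 9.96% and 10.5%, but these sets were not matched by expression level.

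Related genes were also compared as count ratios within each library, which do not depend on the scaling of the libraries. The 9 pairs were chosen after the expression values were seen, and each was tested by an exact 2-sided permutation test over the 56 ways to split the libraries, where the smallest p is 0.0179. The ratio of Ehhadh to Hsd17b4 was 0.496, 0.498 and 0.590 in DIO and 0.971, 0.907, 0.990, 0.973 and 1.01 in DIO + DHA. It did not overlap between the groups, and its log2 difference was 0.88 (exact permutation p = 0.0179, adjusted p = 0.161 over the 9 pairs). The ratio of Acaa1b to Acaa1a was 0.387 to 0.498 in DIO and 0.489 to 0.621 in DIO + DHA, with an overlap, a log2 difference of 0.40 and an exact permutation p of 0.0357 (adjusted p = 0.161). With a library left out, this log2 difference stayed between 0.34 and 0.52. The ratio of the import receptors Pex5 and Pex7 was 0.802 to 0.965 and 0.946 to 1.20, a log2 difference of 0.34 (exact permutation p = 0.0536, adjusted p = 0.161). For Eci3 to Eci2 the log2 difference was 0.90 (exact permutation p = 0.0714, adjusted p = 0.161). In the other 5 pairs, Abcd2 to Abcd3, Nudt7 to Nudt19, Acox2 to Acox3, Pex11a to Pex11g and Mpv17l to Pxmp2, the exact permutation p was 0.196 to 0.786. No pair passed 0.05 after adjustment. With 9 pairs, the smallest p, as for Ehhadh to Hsd17b4, adjusts to 0.161 unless enough other pairs also have a small p.

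**Figure D5:**
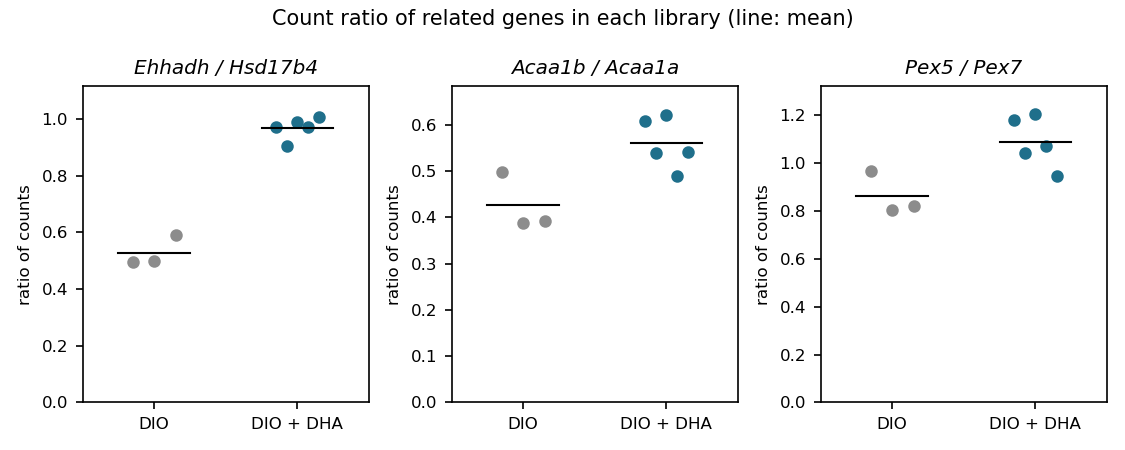
Ratio of counts (y axis, from 0) of Ehhadh to Hsd17b4, Acaa1b to Acaa1a and Pex5 to Pex7 in each library, for DIO (n = 3, grey) and DIO + DHA (n = 5, blue), with a line at the mean. Only the Ehhadh to Hsd17b4 ratio is free of overlap among the 3, with 0.496 to 0.590 in DIO and 0.907 to 1.01 in DIO + DHA.

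Genes around the 44 were read from lists by pathway. Over all tested genes, 7.89% were called higher, 7.28% were called lower and 50.1% of the values were positive. The median log2 fold change of all tested genes was 0.0013. Of 22 tested among 25 other peroxisomal genes, 4 were called higher and 1 lower, with a median log2 fold change of 0.01. Those with the smallest p were Acot3, an acyl-CoA thioesterase, at -0.61 (SE 0.0821, edgeR adjusted p = 3.3e-08), Ephx2, the soluble epoxide hydrolase, at 0.45 (SE 0.0624, edgeR adjusted p = 6.9e-08) and Hsdl2 at 0.49 (SE 0.0850, edgeR adjusted p = 1.2e-05). Of 16 mitochondrial beta-oxidation enzymes, 6 were called higher and none lower by edgeR, 15 values were positive and the median was 0.20, led by Eci1 at 0.43 (edgeR adjusted p = 1.3e-06), Hadhb at 0.50 (edgeR adjusted p = 2.2e-05) and Decr1 at 0.33 (edgeR adjusted p = 0.00022). Of 8 genes for PPAR alpha and its partners, 1 was called higher, the coactivator Ppargc1a at 2.04 (edgeR adjusted p = 7.1e-16). Its means were 7.95 CPM in DIO and 34.6 CPM in DIO + DHA. Ppara itself had a log2 fold change of -0.18 (edgeR adjusted p = 0.25). Muscle and brown adipocyte markers were also higher in DIO + DHA, and their part in Ppargc1a and the other genes of these lists was not tested.

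The promoters were searched for the direct repeat to which PPAR alpha and its partner RXR bind, AGGTCANAGGTCA, on both strands of the 1000 bases before the start of the canonical GENCODE vM39 transcript in GRCm39, allowing 2 mismatches in the 12 fixed letters. Such a match was found for 9 of the 44 genes (20.5%), against 12.7% of 21770 protein-coding genes. Of the 7 genes called higher, 2 held a match, Ehhadh and Acaa1b, and so did the lower gene Hao1 and the uncalled genes Acox2, Cat, Mpv17l, Nudt7, Pex11g and Pxmp2. By list, 3 of the 16 fatty acid enzymes (18.8%) and 1 of the 12 peroxins (8.33%) held a match. The lines below are the match in capitals with 7 bases on either side, 5′ to 3′ on the strand of the gene, for the 2 higher genes, the lower gene and the uncalled gene with the match nearest its start.
Ehhadh: ttggaacTGCCCTTTGAACTttgttcc
Acaa1b: ggggatcTGACCTCTGGCCTcccactt
Hao1: gtatcacTGAGATTTGACCTgcttaaa
Acox2: atctttgTGACCTGAGACCTagttcaa
Distances run from the far end of the match to the vM39 start, which can differ by some bases from the gene bounds of the counted annotation. The capitals lie at chr16:21607470-21607482 (minus strand), 919 bases before the start of Ehhadh, at chr9:118987104-118987116 (minus strand), 955 bases before that of Acaa1b, at chr2:134397130-134397142 (minus strand), 853 bases before that of Hao1, and at chr14:14210320-14210332 (plus strand), 75 bases before that of Acox2. All 4 matches read as the repeat on the opposite strand, with 2 mismatches for Ehhadh and Hao1 and 1 for Acaa1b and Acox2. A match describes the letters only, and the search was set after the expression values were known.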

How the data were processed

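Liver poly(A) RNA was made by the authors into 3′-enriched cDNA with a barcode and molecular identifier primer and a Nextera XT library. Reads were checked with FastQC 0.11.8, trimmed, aligned to GRCm39 with STAR 2.7.9a and counted on GENCODE vM33 exons with featureCounts 1.6.0. The deposited values are raw whole-number counts per gene, per the file headers from 8 commands with 0 strand, multi-mapping or overlap options. Reads were thus counted without strand, and those on exons of several genes were dropped. No source used here says that molecular identifiers were collapsed, and precision from depth covers counting error only. Because reads come mostly from 3′ ends, counts were not divided by gene length and levels of different genes are set side by side only to pick the gene of highest CPM in each role.

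Groups and replicates followed the sample labels. Symbols came from GENCODE vM39, which held 56323 of the 56884 identifiers, and all 44 genes were found. The filter of the study removed genes whose counts fell short of 5 in over 50% of the mice of both groups. The 12412 genes left were fitted with edgeR 4.0.16 in R 4.3.3 (TMM scaling, robust quasi-likelihood F test, Benjamini-Hochberg adjustment over all of them, called at 0.05, common biological coefficient of variation 0.0801). Fold changes carry SE and 95% intervals. Alternatives were limma 3.58.1 (voom), DESeq2 1.42.0, other scalings and filters, the replicate number as a block, and each library left out. The genes, their role groups and the pathway and marker lists were chosen with earlier results of these data known, and lists are described by counts and medians without a set test. Named were the called genes, the gene of highest CPM of each role, every peroxin and the 3 genes of smallest p of each pathway list (for PPAR alpha and its partners the called gene and Ppara), and every other member was added for completeness. Exon overlap came from the counted GENCODE vM33 exons. Shared 80-base stretches came from GENCODE vM39 transcripts, and the targeting signal from the last codons of its canonical transcripts.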

Additional observations from a re-analysis of the deposited data

Results flagged for a closer look

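In 4 of the 44 genes a DIO + DHA library stood apart from the other 4 of its group, by the gap to its neighbour over the range of the group (critical value 0.71 for 5 libraries). Chance marks about 1 in 20 groups, and groups of 3 were not tested. Ehhadh reached 375.984 CPM in DIO + DHA replicate 4, above the 353.896 to 359.844 CPM of the others, all of which exceeded the DIO libraries. Acox3 was at 7.02298 CPM in replicate 2, below the 11.0846 to 12.4616 CPM of the others. Gnpat was at 31.0826 CPM in replicate 5, above 23.855 to 25.4962 CPM. Pex7 was at 50.2767 CPM in replicate 1, below 56.1839 to 57.6793 CPM, and its lower call was lost without that library (edgeR adjusted p = 0.096).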

How the results depend on the processing

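The number of peroxisomal genes called higher was 4 to 8 and the number called lower 3 to 6 over all settings. The higher count fell from 7 to 4 with limma-voom at a log-odds B above 0, and other settings kept both counts within 1.5 times. The peroxins called higher were 1, and 0 with scaling by library size alone, with genes of at least 1 count in any library, with the DESeq2 Wald test and with limma-voom at B above 0. With a library left out they were 0 to 2, being 0 without DIO + DHA replicate 1, 2 or 4 and 2 without DIO replicate 5. The median log2 fold change of the fatty acid enzymes was 0.08, and it was 0.058 with library size alone, 0.039 with at least 10 counts in every library, 0.093 with limma-voom, and 0.066 to 0.16 with a library left out, the highest without DIO replicate 1. The log-odds setting gives counts of calls only, and the filter of 10 counts left 41 of the 44 genes. The median of the peroxins stayed between 0.071 and 0.14.

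The 11 called genes kept their direction throughout. The cause of the lost calls was not tested. Eci2 was called lower with library size alone (adjusted p = 0.017) and under 3 other full-sample settings, Cat with library size alone (adjusted p = 0.036), and Uox higher with limma-voom (adjusted p = 0.037). Reversals of the log2 fold change concerned uncalled genes near 0. Nudt7 was -0.016 with library size alone, -0.0023 with filterByExpr, -0.00011 with limma-voom and -0.077 with the replicate block, Agps was -0.22 with the replicate block, and Pex11g was 0.0068 with limma-voom and 0.058 with the replicate block. With a library left out, the range was -0.018 to 0.13 for Acaa1a, -0.067 to 0.063 for Acox2, -0.39 to 0.040 for Acox3, -0.10 to 0.018 for Phyh, -0.053 to 0.031 for Hacl1, -0.090 to 0.14 for Decr2, -0.059 to 0.065 for Nudt7, -0.14 to 0.30 for Agps, -0.29 to 0.10 for Pex11g, -0.11 to 0.0072 for Pex13, -0.12 to 0.29 for Mpv17l and -0.12 to 0.050 for Lonp2. The log2 ratio differences ranged from -0.0047 to 0.42 for Acox2 to Acox3, -0.18 to 0.28 for Pex11a to Pex11g and -0.20 to 0.072 for Mpv17l to Pxmp2.

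Replicate numbers 1, 4 and 5 occur in both groups, but same-numbered libraries did not deviate together (correlations of -0.010, -0.013 and -0.015, none the highest for its number). These values gave no sign that the numbers pair the mice, but cannot exclude it. With the replicate block the calls over all genes went from 979 higher and 904 lower to 818 and 721. Of the peroxisomal genes, Abcd3 (adjusted p = 0.14) and Pex7 (adjusted p = 0.080) were no longer called and Eci2 was called lower (adjusted p = 0.040).

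With 3 DIO mice, the 95% intervals of the low-count genes Eci3, Far1, Agps, Acox3, Pex10, Pex11g and Mpv17l passed 0.5 log2 units on at least a single side. For the uncalled genes Scp2, Phyh, Acaa1a and Decr2, the coefficients of variation between DIO mice were 12.4%, 9.49%, 10.3% and 18.1%. Counting alone gave 1.89%, 1.99%, 2.63% and 5.02%. In DIO + DHA the coefficient was above the counting value for Scp2, Phyh and Decr2 and below it for Acaa1a. Whether depth limited the calls of these genes was not tested.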
